A study of Mus musculus with 6 samples.

Results

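The enzymes that hydroxylate and crosslink the extracellular matrix were followed through 10 of the 53465 genes in the count table: Tgm2, the lysyl oxidases Lox, Loxl1, Loxl2 and Loxl3, the lysyl hydroxylases Plod1, Plod2 and Plod3, and the prolyl 4-hydroxylase alpha subunits P4ha1 and P4ha2. They were chosen by symbol and role, with the log2 fold changes of Tgm2, Lox and Loxl1 between the groups already known from these libraries. Their differences between the groups are therefore given as a description and without a test of their own. RNA was sequenced from ID8, a line of mouse ovarian surface epithelium that gives rise to ovarian tumours when implanted, in 3 libraries labelled WT and 3 labelled KO. The series text describes stable transfection with sgNC, a control guide, or with sgNat10, a guide against the RNA acetyltransferase gene Nat10, and the labels call the groups WT and KO. WT was read as sgNC and KO as sgNat10. The labels do not say whether either line is 1 clone or whether replicates 4, 5 and 6 came from separate cultures, so a p-value here reflects the spread between these libraries alone, which may be technical.

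Collagen is hydroxylated on proline and lysine in the endoplasmic reticulum, by prolyl 4-hydroxylases and by the lysyl hydroxylases encoded by the Plod genes. Hydroxyproline stabilises the triple helix, and hydroxylysine is a site of sugar attachment and of crosslinks. After secretion, lysyl oxidases, copper enzymes, turn lysines of collagen and elastin into reactive aldehydes that form crosslinks. Tissue transglutaminase (TGM2) joins proteins by a different bond, between glutamine and lysine, with fibronectin as a major partner outside the cell. In ovarian and other carcinomas these enzymes are studied for matrix stiffness and spread.

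Library totals ran from 1687466 to 3126208 counts, with the 3 KO-labelled libraries the deeper ones. Nat10 itself had a mean CPM (read count scaled by library size, with TMM factors) of 112 ± 53.1 in WT and of 106 ± 43.1 under the KO label (SD, n = 3 in each group), and no fall of the targeted mRNA was detected (log2 fold change -0.07, 95% interval -1.09 to 0.94). Directions below are those of the labels. Of the surface epithelial and mesothelial markers, Msln, Krt18 and Krt19 were abundant in all 6 libraries and Krt7 had 6 counts in 1 library. The 8 markers of that list summed to between 6222 and 6668 CPM in WT and between 4681 and 5337 CPM under the KO label. Krt19 was the largest part of that sum in both groups, and the markers did not all move the same way. By edgeR, Krt19 fell from 4202 ± 203 to 2223 ± 32.1 CPM (adjusted p = 0.0044) and Krt18 from 515 ± 123 to 154 ± 53.5 CPM (0.0195), and Msln rose from 789 ± 83.5 to 1636 ± 209 CPM (0.0145). Without overlap, Krt8 was lower (mean 198 CPM in WT, 36.65 under the KO label) and Upk1b higher (342 and 595 CPM). edgeR called neither, and DESeq2 called Upk1b (adjusted p = 0.00964). Upk3b and Wt1 had overlapping groups. The 6 leukocyte markers summed to at most 14.5 CPM in any library, and the 4 endothelial ones to less than that. The 6 fibroblast markers summed to between 666 and 737 CPM in WT and between 951 and 1325 CPM in KO-labelled libraries, nearly all of it from Dcn, with Thy1 at 0 throughout. The part of these marker differences in the matrix results below was not tested.

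Tgm2 was almost lost from the KO-labelled libraries, while Lox, Loxl1 and Loxl3 were higher there in each library than in any WT library. The 3 lysyl hydroxylases and the 2 prolyl hydroxylase subunits had overlapping groups. In edgeR's quasi-likelihood test over 8200 genes, Tgm2 was the 1 gene of the 10 with an adjusted p under 0.05, beside a background of 0.402% of tested genes for both directions together and 0.22% for the lower one. DESeq2 also called Tgm2 lower and placed Lox, Loxl1 and Loxl3 past the same threshold as higher, where it called 2.53% of genes. Groups did not overlap for 3 of the 10 in the higher direction, beside 6.94% of all tested genes, and for 1 in the lower direction, beside 7.93%. The choice of genes used this contrast, so nothing is read from these counts. All 10 passed the filter on low counts, but Loxl3 passed through the KO-labelled libraries and Tgm2 through the WT ones.

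**Figure D1:**
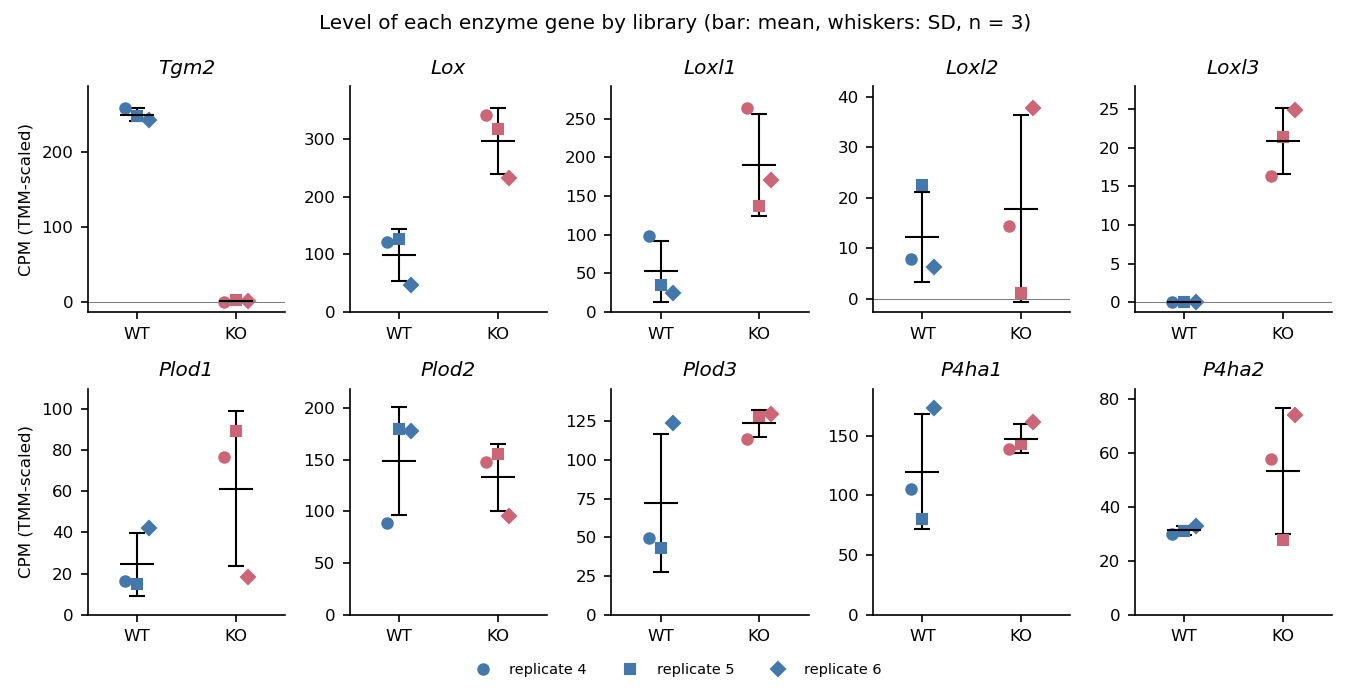
CPM of each of the 10 enzyme genes (y axis, a separate linear scale per gene) in the WT and KO-labelled libraries (x axis), with a symbol per replicate number, the mean as a bar and the SD as whiskers. Tgm2 sits between 243 and 259 CPM in WT and at no more than 3.43 CPM under the KO label, and Loxl3 is at 0 in all WT libraries.

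Tgm2 (ENSMUSG00000037820) lies on the minus strand of chromosome 2, from 158116402 to 158146436 in mm10. In WT replicates 4, 5 and 6 it had 426, 498 and 420 counts, and in the KO-labelled replicates of the same numbers 0, 8 and 5. Scaled, this was 259, 249 and 243 CPM against 0.00, 3.43 and 1.55 CPM. The WT libraries lay close together and far above each KO-labelled library, and KO replicate 4 was the one without a read. The ratio of summed scaled counts was 156 in favour of WT, with a 95% exact interval of 91.0 to 294 that covers counting error only, since amplified reads are not independent molecules. The fitted log2 fold change was -7.22 ± 0.70 (SE). Of the exon bases of Tgm2, 21.8% also lie under exons of opposite-strand genes, Rprd1b and Gm20412, and no source used here gives the strand setting. Rprd1b was at 17.6, 0.00 and 31.2 CPM in WT, and in the WT library where it had no count Tgm2 had 498.

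Within 500 kb on each side of the start of Tgm2 there were 6 tested genes, with log2 fold changes from -8.36 to 0.44 and a median of -0.47. The nearest, Tti1 and Rprd1b, started 118 and 117.9 kb away and had log2 fold changes of 0.42 ± 1.14 and -1.67 ± 2.67 (SE). The lowest value belonged to Arhgap40, singled out here after its values were seen, with 18.2 CPM in WT and no count under the KO label. edgeR called 0 of the 6, while Arhgap40 was the 1 gene at an unadjusted p under 0.05 and the 1 that DESeq2 called. The other 9 transglutaminase family genes (Tgm1, Tgm3 to Tgm7, F13a1, F13b and Epb42) had no count in any of the 6 libraries. Tgm2 was the 1 family member with counts at this depth, in either group.

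Lox (ENSMUSG00000024529, chromosome 18) encodes the founding lysyl oxidase. It stood at 122, 127 and 46.2 CPM in WT and at 342, 317 and 233 CPM under the KO label, so the lowest KO-labelled library was above the highest WT one. WT replicate 6 was far below the other WT libraries. The fit put the log2 fold change at 1.59 ± 0.38 (SE; 95% interval 0.78 to 2.41). With 1 library left out it ran from 1.25 to 1.82.

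Loxl1 (chromosome 9 from 58287738 to 58313186), which acts mainly in elastin fibres, showed the same order of groups with a wider spread. Its CPM values were 97.9, 35.0 and 24.9 in WT and 263, 137 and 171 under the KO label. WT replicate 4 and KO replicate 4 were the highest of their groups. The log2 fold change was 1.86 ± 0.51 (SE), or 1.52 to 2.67 with 1 library left out, the highest without WT replicate 4. Of 5 tested genes within 500 kb, edgeR called 0, and 1 (Sema7a, with 27.3 CPM in WT and no count under the KO label) had an unadjusted p under 0.05 and was called by DESeq2. Pml, 63.4 kb from its start, had a log2 fold change of -0.31 ± 1.01.

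Loxl3 (chromosome 6 from 83034173 to 83052562) was at 0 in the WT libraries and had 42, 50 and 80 counts in KO replicates 4, 5 and 6, which is 16.4, 21.4 and 24.8 CPM. With WT set at 3 counts over the group, Loxl3 was at least 38.0-fold higher under the KO label, a bound for counting error only. This pattern, 0 in all WT libraries with 10 or more counts in each KO-labelled library, was found in 12 tested genes, or 0.146%. Genes with 40 or more counts in 1 library and none in the other 5 numbered 236 in the table, so counts of this size also appear in single libraries. Dok1, whose start lies 0.7 kb from that of Loxl3, stood at 83.4 CPM in WT and 76.5 CPM under the KO label. Htra2, on the opposite strand over 11.6% of the exon bases of Loxl3, was counted in all 6 libraries, at 61.9 ± 36.4 and 79.4 ± 27.4 CPM (SD, n = 3 per group).

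Loxl2, an oxidase that also acts on type IV collagen of basement membranes, was low and scattered. It stood at 7.90, 22.5 and 6.36 CPM in WT and at 14.4, 1.28 and 37.8 CPM under the KO label, so the KO-labelled libraries held both the lowest and the highest value. The log2 fold change was 0.54 with a 95% interval of -3.53 to 4.61, and became -0.64 without KO replicate 6. No difference was detectable at this depth.

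Loxl4, the remaining paralog and not one of the 10 genes, had the reverse pattern to Loxl3. Its counts were 16, 61 and 15 in WT and 0 in each KO-labelled library, at least 46.3-fold lower with the KO-labelled group set at 3 counts. edgeR gave an adjusted p of 0.555 for Loxl4 and DESeq2 0.0739, so it passed neither test. A total of 40 tested genes, or 0.488%, had no count under the KO label and 10 or more in each WT library.

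Set per exon length, so that paralogs can be compared, the 5 lysyl oxidase genes summed to 42.7 ± 19.9 CPM per kilobase in WT and 128 ± 25.9 under the KO label (SD, n = 3 per group), with 58.9 as the highest WT and 113 as the lowest KO-labelled library. Lox took 48.4% ± 5.87 of that sum in WT and 49.1% ± 8.52 under the KO label. Loxl1 took 36.4% ± 14.3 and 44.5% ± 7.05. The share of Lox and Loxl1 overlapped between the groups, while the smaller part held Loxl4 in WT (3.92% to 14.9% of the sum) and Loxl3 under the KO label (2.26% to 4.77%).

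**Figure D2:**
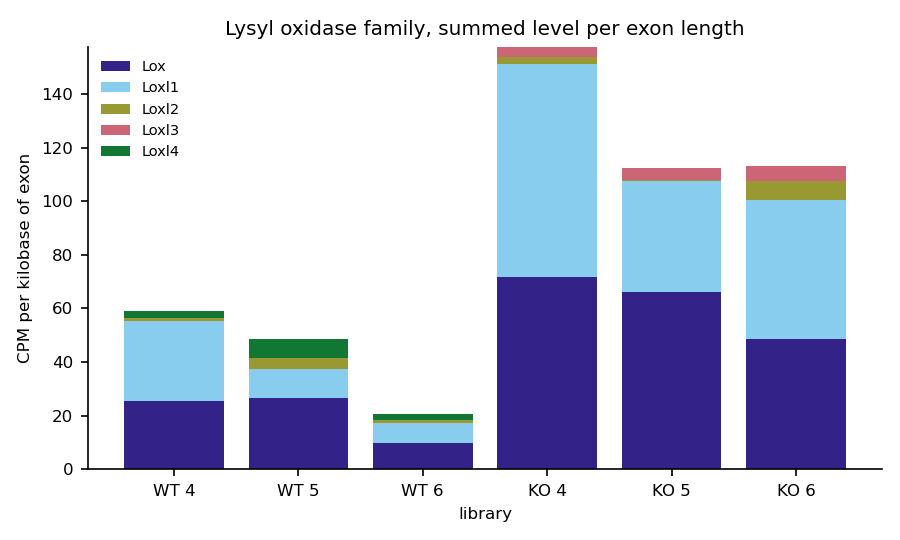
Stacked level of the 5 lysyl oxidase paralogs in each library, in CPM per kilobase of annotated exon. The sum is 20.5 to 58.9 in WT and 113 to 158 in KO-labelled libraries, with Loxl4 seen only in the WT bars and Loxl3 only in the KO-labelled ones.

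The ratio of Tgm2 to Lox and to Loxl1 turned over between the groups. Per exon length, the log2 ratio of Tgm2 to Lox was 1.14, 1.01 and 2.42 in WT and -8.54, -6.15 and -6.53 under the KO label. Against Loxl1 it was 0.91, 2.32 and 2.76 in WT and -8.70, -5.48 and -6.62 under the KO label. Tgm2 was thus above both in each WT library and below both in each KO-labelled library. Of the 4 lysyl oxidases among the 10 genes, Loxl2 was the exception, since in KO replicate 5 the log2 ratio of Tgm2 to it was 1.22. That value rests on 8 counts of Tgm2 and 3 of Loxl2. Loxl4, outside the 10, had no count under the KO label, so Tgm2, with 0, 8 and 5 counts there, was not below it. The fitted log2 fold change of Tgm2 minus the mean of the 4 oxidases was -10.36, which became -9.53 with Loxl3 set at its bound and -8.55 without Loxl3. Loxl4, also lower under the KO label, is not in this mean.

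**Figure D3:**
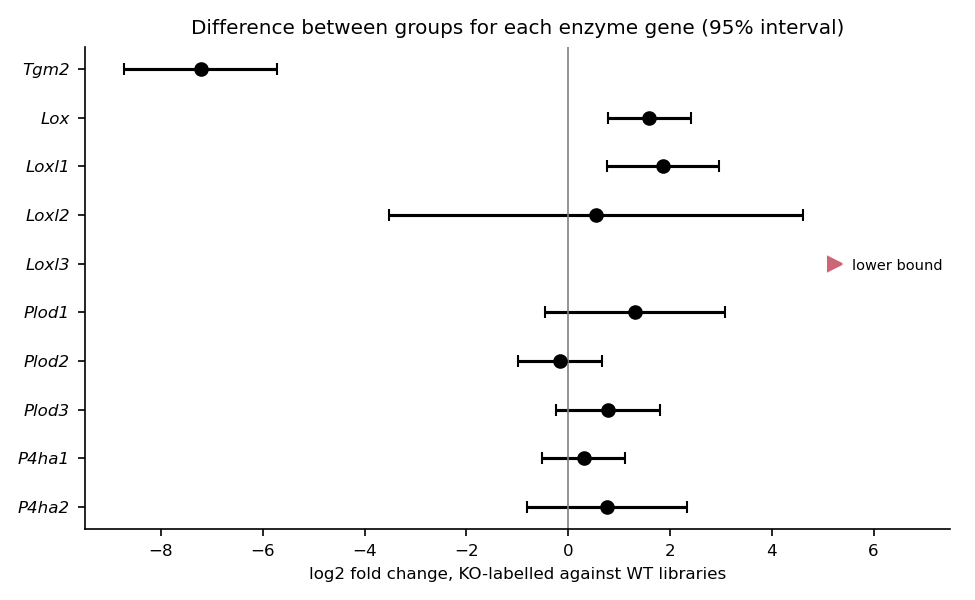
Fitted log2 fold change of each enzyme gene, KO-labelled against WT libraries (x axis), with 95% intervals, and Loxl3 as an arrow at its lower bound because WT had no count. Tgm2 is at -7.22, Lox and Loxl1 are at 1.59 and 1.86, and the intervals of Loxl2, the Plod genes and the P4ha genes include 0.

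Several of the hydroxylase genes are known to be switched on by hypoxia-inducible factor (HIF). The promoters on hand were therefore searched for ACGTG, a form of its core letters. RefSeq's promoter table (GRCm38.p6) held 4 of the 10 genes, and the 250 bases before each start are printed 5′ to 3′ on the gene's strand, with ACGTG or its reverse complement in capitals. The windows are chr10:59323046-59323295 (plus strand), chr11:54100674-54100923 (plus), chr4:147936777-147937026 (minus) and chr5:136986769-136987018 (plus). That of P4ha2 lies before a RefSeq start inside the GENCODE gene, which begins at 54100095.
P4ha1: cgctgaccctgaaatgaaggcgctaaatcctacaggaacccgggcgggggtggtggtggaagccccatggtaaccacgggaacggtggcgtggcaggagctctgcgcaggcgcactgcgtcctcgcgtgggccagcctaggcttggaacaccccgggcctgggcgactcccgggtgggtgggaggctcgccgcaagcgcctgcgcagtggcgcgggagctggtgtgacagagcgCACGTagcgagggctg
P4ha2: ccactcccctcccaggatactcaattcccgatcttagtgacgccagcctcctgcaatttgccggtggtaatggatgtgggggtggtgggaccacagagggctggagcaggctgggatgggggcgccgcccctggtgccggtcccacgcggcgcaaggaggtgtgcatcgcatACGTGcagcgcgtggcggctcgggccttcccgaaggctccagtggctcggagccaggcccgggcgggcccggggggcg
Plod1: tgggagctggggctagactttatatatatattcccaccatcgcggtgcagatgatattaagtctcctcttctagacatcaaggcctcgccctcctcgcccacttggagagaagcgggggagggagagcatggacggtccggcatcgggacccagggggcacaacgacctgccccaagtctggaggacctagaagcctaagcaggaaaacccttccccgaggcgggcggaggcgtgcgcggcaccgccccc
Plod3: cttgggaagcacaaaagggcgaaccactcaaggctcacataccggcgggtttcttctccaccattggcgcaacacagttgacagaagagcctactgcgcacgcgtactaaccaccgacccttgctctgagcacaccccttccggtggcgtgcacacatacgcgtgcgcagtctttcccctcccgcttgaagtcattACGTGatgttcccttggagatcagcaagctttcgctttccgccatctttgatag
The letters stood in 3 of the 4 windows, 16 bases before the start in P4ha1, 78 in P4ha2 and 54 in Plod3, and in 16.6% of all 32851 promoter windows of this length. G and C made 55.6% to 70.0% of the 4 windows, beside a median of 52.4% over all promoters. ACGTG holds a CG, so this background is of unlike composition. Other forms of the core, such as GCGTG, were not counted over all promoters, so a window without ACGTG may still hold one. GCGTG can be read in each of the 4 printed windows, that of Plod1 included. A match is a description of letters only.

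Each of the 3 lysyl hydroxylases had overlapping groups. Plod2, the enzyme of the collagen telopeptides, stood at 88.8, 179 and 178 CPM in WT and at 147, 156 and 95.6 CPM under the KO label. Its log2 fold change was -0.16 with a 95% interval of -0.99 to 0.66. Plod1, which acts on the helix and lies on chromosome 4 from 147909753 to 147936767, stood at 16.4, 15.0 and 42.2 CPM in WT and at 76.5, 89.1 and 18.3 CPM under the KO label. KO replicate 6 lay within the WT range and the other two KO-labelled libraries above it, and the log2 fold change was 1.32 with an interval of -0.45 to 3.09. Plod3, which also transfers sugars to hydroxylysine, stood at 49.9, 43.0 and 124 CPM in WT and at 114, 128 and 130 CPM under the KO label. Here WT replicate 6 lay among the KO-labelled libraries, and the log2 fold change was 0.78 with an interval of -0.24 to 1.80. Exons of Znhit1 and of a miRNA cover 11.9% of those of Plod3.

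By exon length, Plod2 was the main lysyl hydroxylase in WT with 49.6% to 73.9% of the 3-gene sum, and Plod3 held 21.1% to 41.1%. Under the KO label Plod2 and Plod3 held 42.9% and 39.4% in replicate 4, 41.1% and 40.2% in replicate 5, and 36.1% and 58.4% in replicate 6, so Plod3 was above Plod2 in replicate 6 alone. The ranges of Plod2 did not overlap, and this share was not tested. Their sums were 47.2 ± 18.5 and 61.1 ± 10.9 CPM per kilobase (SD, n = 3 per group), with overlap.

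P4ha1 and P4ha2 carry the catalytic site of prolyl 4-hydroxylase and pair with the disulfide isomerase P4HB. P4ha1 stood at 105, 80.5 and 173 CPM in WT and at 138, 143 and 161 CPM under the KO label, where all 3 libraries lay inside the WT range. Its log2 fold change was 0.30 with an interval of -0.51 to 1.11. P4ha2 was tight in WT, at 29.8, 31.0 and 33.0 CPM, and scattered under the KO label, at 57.7, 27.8 and 73.8 CPM. KO replicate 5 fell below all WT libraries, and the log2 fold change was 0.77 with an interval of -0.81 to 2.34. P4ha1 made 77.3% to 88.9% of the alpha subunit sum per exon length in WT and 76.8% to 88.6% under the KO label. P4ha3 had 14 counts in 1 WT library and none elsewhere.

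WT replicate 6 was the lowest WT library for Lox, Loxl1 and Loxl2 and the highest for Plod1, Plod3, P4ha1 and P4ha2. Per exon length the order of mean levels in WT was Tgm2 (54.3 ± 1.78 CPM per kilobase), P4ha1 (29.1 ± 11.7), Plod2 (27.6 ± 9.63), Lox (20.6 ± 9.48), Plod3, Loxl1, P4ha2, Plod1, Loxl2 and Loxl3. Tgm2 stood clear of P4ha1 by more than the spread, and from P4ha1 to Loxl1 no gene differed from the next in the order by more than its SD. Under the KO label the order was Lox (62.2 ± 11.96), Loxl1 (57.7 ± 19.9), P4ha1 (35.8 ± 2.96), Plod3 (27.4 ± 1.97), Plod2 (24.7 ± 6.06), Plod1, P4ha2, Loxl3, Loxl2 and last Tgm2 (0.36 ± 0.372). Lox and Loxl1 did not differ beyond their spread, nor did Plod3 and Plod2.

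The genes whose log2 CPM over the 6 libraries was most like that of Tgm2 were Psma6, Ilf2, Pla2g15, BC037034 and Cyp2j6, with Pearson r from 0.982 to 0.987. Psma6, a proteasome subunit, ran from 369 to 398 CPM in WT and from 207 to 233 CPM under the KO label, so likeness of order did not mean likeness of size. Cyp2j6, a cytochrome P450, ran from 60.5 to 79.8 CPM in WT and from 0.00 to 0.856 CPM under the KO label, nearer to Tgm2 in size. Those most like Lox were Laptm4a, Itga3, Samd1, Clpp and Gdf6, with r from 0.983 to 0.995. Gdf6, a bone morphogenetic protein, stood at 50.5, 36.0 and 15.0 CPM in WT and at 142, 134 and 116 CPM under the KO label, with its lowest WT value in replicate 6 as for Lox. The 6 points fall in 2 groups, and these values are a description.

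Around the enzymes, 100 genes in 7 lists were followed by role, of which 57 could be tested and 26 had no count in any library. edgeR's quasi-likelihood test called 0 of the 57. At its unadjusted p under 0.05, 2 were higher and 7 lower. Of all 8200 tested genes, 221 were higher and 311 lower at that level, or 6.49% for both directions together. DESeq2 called 6 (Fn1 higher, Col1a1, Col6a1, Ddit4, Dhrs3 and Pgk1 lower), limma-voom 2 and edgeR without a filter on low counts 3. Over all genes these tests called 2.53%, 1.13% and 0.711%. The median log2 fold change of all 8200 tested genes was -0.02, with 4021 estimates above 0 and 4179 below.

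**Figure D4:**
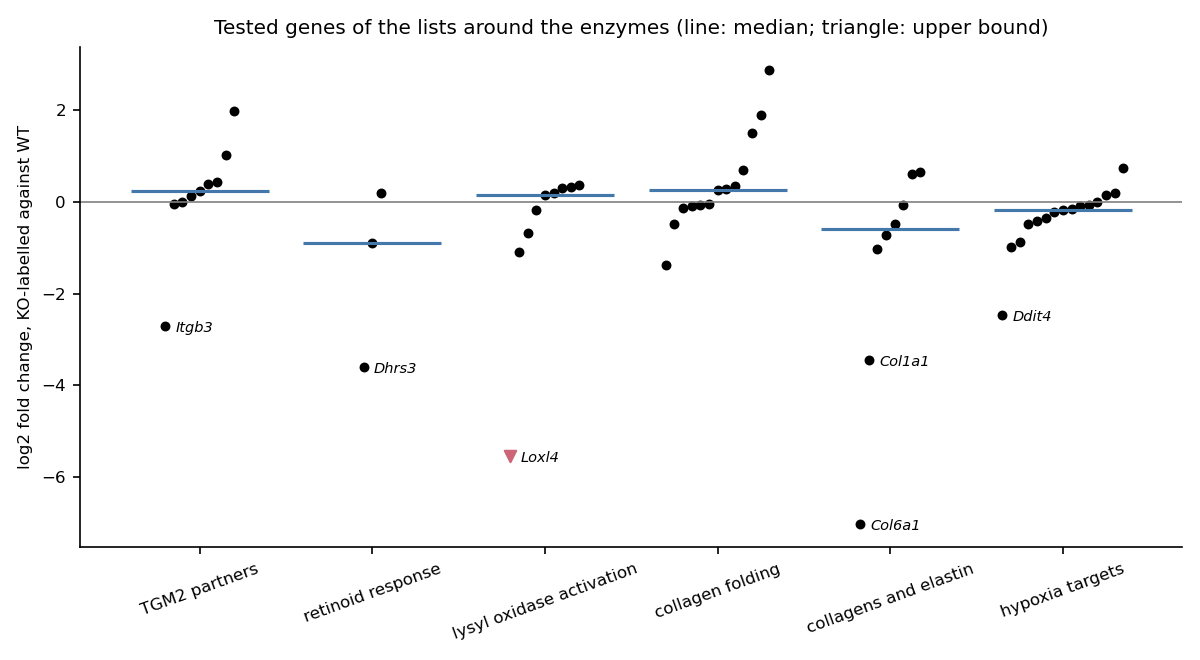
Fitted log2 fold change (y axis) of each tested gene in the 6 lists with tested members (x axis), a blue line at each list's median and a triangle at the bound of a gene without counts under the KO label. Most genes lie within 1 unit of 0, and Loxl4, Col6a1, Dhrs3 and Col1a1 lie lowest.

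Among 9 tested partners of TGM2, 7 had an estimate above 0, with a median of 0.23. Fibronectin (Fn1) went from 321, 292 and 237 CPM in WT to 425, 665 and 644 CPM under the KO label, without overlap, with a log2 fold change of 1.03 ± 0.25 (SE), an edgeR adjusted p of 0.108 and a DESeq2 adjusted p of 3.76e-04. The integrin chains Itgav and Itgb1, receptors for matrix, had log2 fold changes of 0.39 ± 0.25 and 0.23 ± 0.19, and vinculin (Vcl) 0.44 ± 0.23. Itgb3 stood at 34.9 ± 9.92 CPM in WT and had counts in 1 of 3 KO-labelled libraries. Tgm2 is a textbook target of retinoic acid, and of 14 retinoid response genes 3 could be tested. Dhrs3, which reduces retinal, stood at 69.3, 80.5 and 25.4 CPM in WT and at 8.19, 0.856 and 5.27 CPM under the KO label (log2 fold change -3.59 ± 1.18, edgeR adjusted p = 0.433, DESeq2 0.00884). The receptors Rara and Rarg had log2 fold changes of -0.89 ± 1.75 and 0.19 ± 2.43, too wide to place.

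The list of genes that activate, load or scaffold lysyl oxidases also holds the paralog Loxl4. Of its 9 tested genes, 5 had an estimate above 0, Loxl4 not among them, and the median was 0.16. Pcolce, the enhancer of the protease that matures procollagen, stood at 1071 ± 97.4 CPM in WT and 1385 ± 237 under the KO label (SD, n = 3 in each group), with an edgeR adjusted p of 0.811. Atp7a, the pump that loads copper onto secreted enzymes, was at 116 ± 3.40 CPM in WT and 72.8 ± 4.27 CPM under the KO label, without overlap (log2 fold change -0.68 ± 0.41, edgeR adjusted p = 0.991). The copper chaperone Atox1 had a log2 fold change of -1.09 ± 1.67. No gene of this list passed the test.

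The list of collagen folding genes of the endoplasmic reticulum also holds the matrix protein Sparc. Of its 13 tested genes, 7 had an estimate above 0, Sparc among them, and the median was 0.26. Crtap, part of the prolyl 3-hydroxylase complex, stood at 28.6, 48.0 and 14.4 CPM in WT and at 141, 40.7 and 75.1 CPM under the KO label (edgeR adjusted p = 0.713). Sparc, a matrix protein that binds collagen, had 928 ± 111 CPM in WT and 1186 ± 128 under the KO label (SD, n = 3 in each group; edgeR adjusted p = 0.858). Colgalt1, which adds galactose to hydroxylysine, had 121 ± 46.9 and 196 ± 25.7 CPM (adjusted p = 0.871). Ppib, the cyclophilin of the same complex, had a log2 fold change of -0.49 ± 0.40.

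Of 16 collagen, elastin and fibrillin genes 8 could be tested, 6 with an estimate below 0, and the median was -0.60. Col1a1, a chain of the main fibrillar collagen, stood at 73.0, 85.4 and 42.8 CPM in WT and at 0.390, 16.3 and 1.86 CPM under the KO label (log2 fold change -3.44 ± 1.19, edgeR adjusted p = 0.479, DESeq2 0.0294). Its partner chain Col1a2 had 6 counts in KO replicate 6 and none elsewhere, and Col3a1 had 88 in that library alone. Col6a1 had 69, 63 and 60 counts in WT and 0, 0 and 2 under the KO label, a ratio of 145 with a 95% exact counting interval of 39.6 to 1206 (edgeR adjusted p = 0.408, DESeq2 0.00157). The basement membrane chains Col4a1 and Col4a2 were the 2 with an estimate above 0, at log2 fold changes of 0.61 ± 0.29 and 0.65 ± 0.38. Elastin (Eln), the main substrate of Loxl1, had 2 counts, again in KO replicate 6, and none elsewhere.

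Of 15 tested hypoxia targets outside the 10 genes, 12 had an estimate below 0, with a median of -0.19. By edgeR, 3 were lower at an unadjusted p under 0.05. Over all 8200 tested genes, 4179 had an estimate below 0 and 311 were lower at that level. Ddit4, a stress-induced inhibitor of mTOR signalling, stood at 103, 138 and 100.02 CPM in WT and at 18.7, 20.1 and 22.6 CPM under the KO label (log2 fold change -2.47 ± 0.53, edgeR adjusted p = 0.0646, DESeq2 1.43e-05). The glycolytic enzymes Pgk1 and Eno1 had log2 fold changes of -0.98 ± 0.25 and -0.43 ± 0.18 (edgeR adjusted p = 0.160 and 0.651), and the histone demethylase Kdm3a -0.89 ± 0.55. The promoters of P4ha1, P4ha2 and Plod3 printed above hold ACGTG or its reverse complement, and these 3 genes had estimates above 0 with intervals that include 0. The window of Plod1 lacks those letters but holds GCGTG, another form of the core, as do the other windows. Plod1 had a higher estimate than each of these 3 genes (1.32), also with an interval that includes 0. A link between letters and levels was not tested.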

How the data were processed

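Per the submitters' processing notes, the authors used fastp, HISAT2 2.0.5 and featureCounts 1.5.0-p3 on mm10, and the deposited values are raw counts per gene. No source used here gives the strand mode, annotation release or duplicate removal. Columns were matched to libraries through the labels. Gene symbols, positions and exon lengths are from GENCODE M21, which matched 53274 of 53465 genes.

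The count test was edgeR 4.0.16 in R 4.3.3 (filterByExpr with a minimum count of 10, TMM, robust quasi-likelihood fit, group as the only term), two-sided, with Benjamini-Hochberg adjustment over 8200 genes and a threshold of 0.05. The SE is the log2 fold change over the root of the F statistic. CPM uses TMM-scaled library sizes, and log2 CPM a prior count of 2. Alternatives were DESeq2 1.42.0, limma-voom (limma 3.58.1), other scalings and filters, the replicate number as a block, and leaving out each library. The fit was tested on simulated counts. Replicates of a group differed by far more than sampling noise (chi-square over its degrees of freedom of at least 21.8), so no library was taken for a second deposit of another. This does not show that they are separate cultures.

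The 10 genes and all lists were chosen with earlier results of these data known. Named genes are the 10, Nat10, up to 4 tested genes per list with the smallest p, and the 5 genes (average log2 CPM of at least 2) most correlated with Tgm2 and with Lox. Itgb1, P4ha3, Col1a2, Col3a1, Eln, Dok1, Htra2, Rprd1b, Tti1, Pml, Znhit1, Sema7a and Arhgap40 were named outside that rule after their values were seen. Msln, Krt7, Krt8, Krt18, Krt19, Upk1b, Upk3b, Wt1, Dcn and Thy1 come from the marker lists and were singled out in the same way.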

Additional observations from a re-analysis of the deposited data

How the results depend on the processing

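The number of genes called was 33 (15 higher, 18 lower). It was 235 with DESeq2, 91 without a filter on low counts, 93 with limma-voom and 16 at an adjusted p of 0.01, and library totals in place of TMM gave 43 (27 higher, 16 lower). With 1 library left out it ran from 6 to 29, with 6 when either WT replicate 5 or 6 was absent, and 15, 20 and 18 in the fits that lacked KO replicates 4, 5 and 6. The replicate block gave 38 genes. Deviations of same-numbered libraries correlated at -0.0167, -0.0026 and -0.0067, so the numbers were not taken to pair the samples. Tgm2 kept its direction and its call in each alternative fit. Tgm2 minus the mean of Lox, Loxl1, Loxl2 and Loxl3 was -10.36 and ran from -11.42 to -9.76 with 1 library left out. It moved by more than the spread between replicates (1.17, the pooled SD of the log2 ratio per library) in 1 case, -8.55 without Loxl3. That alternative was chosen after seeing the data, as was the bound for Loxl3. The log2 ratio per library, with its prior count of 2, is another measure than the fit and differed by -8.96 between the groups. A mean that includes Loxl4 was not computed. The 57 tested genes of the lists held 0 calls in edgeR, 6 in DESeq2, 3 without a filter and 2 in limma-voom, and 0 whichever library was left out. Lox and Loxl1, which did not pass in the edgeR fit as designed (adjusted p = 0.11 and 0.246), passed the threshold in DESeq2, in limma-voom and without a filter on low counts. Lox also passed with the replicate block (log2 fold change 1.704) and Loxl1 without WT replicate 4 (2.67). Loxl3 passed in DESeq2 (adjusted p = 0.0326) but not in edgeR (0.545), limma-voom (0.293) or edgeR without a filter on low counts (0.575). The sign of Nat10 turned with library totals (0.0265) and limma-voom (0.0195), and that of Rarg with the replicate block (-2.04) and limma-voom (-2.15). With 1 library left out, Loxl2 ran from -0.64 (KO replicate 6 absent) to 1.32, Plod2 from -0.43 to 0.0235 (KO replicate 6 absent), Nat10 from -0.35 to 0.35 and Rarg from -4.04 to 0.88. The cause of these shifts was not tested. One count is worth 0.310 to 0.608 CPM, and no library had more than 122 counts for Loxl2, Loxl3 or Loxl4.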
